A study of Homo sapiens with 20 samples.

Results

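Open chromatin at the genes of 5 receptor tyrosine kinases was described from lists of ATAC-seq peaks of SW872 cells, a human liposarcoma line. ATAC-seq cuts accessible DNA with a transposase, and a peak is a stretch where the cut fragments pile up. The members were all peaks that overlapped, in hg19 coordinates, a window around EGFR (chr7:55066000-55296000), MET (chr7:116302000-116449000), AXL (chr19:41715000-41778000), PDGFRA (chr4:55075000-55175000) or PDGFRB (chr5:149483000-149546000). These windows held 876 of the 1407450 peaks in the 7 lists, with 353 at EGFR, 237 at MET, 165 at PDGFRB, 69 at PDGFRA and 52 at AXL.

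The study stably transduced SW872 cells with 1 of 7 vectors and deposited 1 peak list for each. The vectors were the empty vector (EV), TAZ4SA and YAP5SA (full-length TAZ and YAP in which 4 or 5 serines, targets of the inhibitory LATS kinases, are replaced by alanine), full-length CAMTA1 and TFE3, and both fusion proteins, TAZ-CAMTA1 and YAP-TFE3, that drive epithelioid hemangioendothelioma. There were 20 libraries, 3 per vector and 2 for TFE3, the replicates being separate transductions of the same line. 1 of the EV libraries, replicate 3, is titled a redo, and the titles of the YAP-TFE3 libraries name Yap5SA as the YAP portion of the fusion. The tumor is endothelial, whereas SW872 comes from a liposarcoma. Each list gives no value per library, so no difference between lists could be set against the spread between replicates, and no test was possible. All values below are descriptions of the 7 lists.

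Receptor tyrosine kinases are membrane proteins that bind a growth factor outside the cell, pair up, and phosphorylate themselves and adaptor proteins inside it, which switches on the MAPK and PI3K pathways. EGFR binds the EGF family of ligands, MET binds hepatocyte growth factor, AXL binds GAS6, and PDGFRA and PDGFRB bind platelet-derived growth factors and are typical of mesenchymal cells. TAZ and YAP are coactivators that reach DNA mainly through the TEAD factors, often near AP-1 sites, and AXL is a well known target gene of theirs.

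The promoters of these genes have different sequence make-up, and for 3 of them RefSeq lists 2 starts. The 250 bases before each RefSeq start (GRCh38.p14, printed along the strand of the gene) were searched on both strands for 4 motifs, the TEAD motif GGAATG, the AP-1 motif TGANTCA, the E-box CACGTG that TFE3 binds, and the GC box GGGCGG. Capitals mark the matches in the sequences below. Both starts of AXL and PDGFRA are shown because the lists have a separate large site at or near the distance of each. Both AXL starts and the second PDGFRA start lay at distances within such a site. The first PDGFRA start lay past the end of its promoter site. Both starts of EGFR are shown because they contrast in motifs and in peak size. The AXL windows are chr19:41218973-41219222 and chr19:41226505-41226754 on the plus strand, with starts 7532 bp apart. The PDGFRA windows are chr4:54229043-54229292 and chr4:54233710-54233959 on the plus strand, with starts 4667 bp apart. The EGFR windows are chr7:55018767-55019016 and chr7:55109589-55109838 on the plus strand, with starts 90822 bp apart.
AXL first start: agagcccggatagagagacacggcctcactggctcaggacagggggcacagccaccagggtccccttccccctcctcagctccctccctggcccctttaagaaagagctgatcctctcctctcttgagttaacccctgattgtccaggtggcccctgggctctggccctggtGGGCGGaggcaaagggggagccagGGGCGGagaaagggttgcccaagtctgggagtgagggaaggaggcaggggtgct
AXL second start: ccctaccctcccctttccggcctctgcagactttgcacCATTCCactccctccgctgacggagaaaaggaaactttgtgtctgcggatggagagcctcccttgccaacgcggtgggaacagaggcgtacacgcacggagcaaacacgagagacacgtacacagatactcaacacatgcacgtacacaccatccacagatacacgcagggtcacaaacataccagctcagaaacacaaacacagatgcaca
PDGFRA first start: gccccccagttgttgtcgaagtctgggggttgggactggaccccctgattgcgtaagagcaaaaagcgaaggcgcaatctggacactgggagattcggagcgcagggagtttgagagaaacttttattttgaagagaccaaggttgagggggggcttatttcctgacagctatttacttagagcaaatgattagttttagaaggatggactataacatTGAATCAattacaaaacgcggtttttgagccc
PDGFRA second start: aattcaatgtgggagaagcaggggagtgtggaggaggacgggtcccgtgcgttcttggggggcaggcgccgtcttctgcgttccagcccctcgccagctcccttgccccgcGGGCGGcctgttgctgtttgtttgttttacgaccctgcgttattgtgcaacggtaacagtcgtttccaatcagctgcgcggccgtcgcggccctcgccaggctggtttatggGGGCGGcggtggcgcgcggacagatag
EGFR first start: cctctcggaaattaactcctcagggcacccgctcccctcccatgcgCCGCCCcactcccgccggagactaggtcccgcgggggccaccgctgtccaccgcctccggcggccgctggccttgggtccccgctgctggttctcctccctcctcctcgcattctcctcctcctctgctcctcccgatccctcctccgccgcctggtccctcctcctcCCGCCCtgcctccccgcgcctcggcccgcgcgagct
EGFR second start: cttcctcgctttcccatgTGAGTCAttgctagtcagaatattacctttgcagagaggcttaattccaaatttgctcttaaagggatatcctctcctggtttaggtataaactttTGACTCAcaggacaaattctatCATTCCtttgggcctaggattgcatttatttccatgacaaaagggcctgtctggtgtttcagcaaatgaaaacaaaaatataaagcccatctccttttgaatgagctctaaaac

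The first starts of EGFR and AXL and the second start of PDGFRA each held 2 GC boxes and neither a TEAD nor an AP-1 motif. MET (chr7:116671946-116672195, plus strand) also held 2 GC boxes, and PDGFRB (chr5:150155846-150156095, minus strand) held 1. The second AXL start held 1 TEAD motif, the first PDGFRA start 1 AP-1 motif, and the second EGFR start 1 TEAD and 2 AP-1 motifs. No window held the E-box. Among 35116 RefSeq promoter windows of the same length, 42.6% held the GC box, 11.9% the TEAD motif, 6.57% the AP-1 motif and 6.34% the E-box. CpG dinucleotides numbered 25 at the first EGFR start, 24 at MET, 25 at the second PDGFRA start, 13 at the second AXL start, 9 at PDGFRB, 8 at the first PDGFRA start, 4 at the first AXL start and 1 at the second EGFR start. A match is a match of letters and was not tested for binding.

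The number of peaks in the windows broadly followed the length of the list, although CAMTA1 had the most and its list was not the longest. EV had 107 peaks in the windows, TAZ4SA 96, YAP5SA 133, CAMTA1 155, TFE3 106, TAZ-CAMTA1 136 and YAP-TFE3 143. Per 10000 peaks of the list, these were 6.25 in EV, 6.29 in TAZ4SA, 5.76 in YAP5SA, 6.93 in CAMTA1, 6.78 in TFE3, 5.74 in TAZ-CAMTA1 and 6.06 in YAP-TFE3. The widest Wilson 95% interval was that of TFE3, from 5.60 to 8.19, and it contained the values of all 7 lists. The intervals of YAP5SA, 4.86 to 6.83, and TAZ-CAMTA1, 4.85 to 6.79, did not reach the CAMTA1 value of 6.93. These intervals cover counting error only.

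EGFR was the gene whose peak number differed most between lists. Its window held 34 peaks in EV and in TAZ4SA, 42 in TFE3, 53 in YAP-TFE3, 58 in YAP5SA, 60 in TAZ-CAMTA1 and 72 in CAMTA1. Per 10000 peaks of the list, EGFR had 1.99 peaks in EV with an interval of 1.42 to 2.78, and 3.22 in CAMTA1 with an interval of 2.56 to 4.05, so that even these extremes overlapped. MET ranged from 26 peaks in TFE3 to 42 in TAZ-CAMTA1, and PDGFRB from 18 in TAZ4SA to 29 in CAMTA1 and YAP-TFE3. PDGFRA had 8 to 12 peaks and AXL 5 to 9. AXL had its fewest peaks, 5, in TAZ-CAMTA1, but they covered the most bases, 11044 against 7393 to 10993 in the other lists, because neighbouring peaks were joined. The median AXL peak was 2473 bp wide in TAZ-CAMTA1 and 681 bp in EV. A peak count at these genes is therefore not a measure of open bases.

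The windows of EGFR, MET and PDGFRB were denser in peaks than the 1 Mb to each side in all 7 lists. In EV, PDGFRB had 38.1 peaks per 100 kb, against 18.2 in these flanks and 10.5 over chromosome 5. EGFR had 14.8 and MET 20.4 per 100 kb, against 8.15 and 5.35 in their flanks and 8.11 over chromosome 7. AXL, at 11.1 per 100 kb, was level with its flanks, at 11.2, and PDGFRA had 12.0 against 5.0. AXL was above its flanks in TAZ4SA alone and furthest below them in TAZ-CAMTA1, at 7.94 against 17.1. PDGFRA was below its flanks in TAZ-CAMTA1 alone. These densities count peaks. In bases covered, TAZ-CAMTA1 was the highest list at both genes, with 11044 at AXL and 7360 at PDGFRA. Chromosomes 5 and 7 carried more peaks per 100 kb in EV than the whole genome, at 5.53, and chromosome 4 fewer, at 2.70. Copy number was not analysed here, so its part in these densities was not tested.

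**Figure D1:**
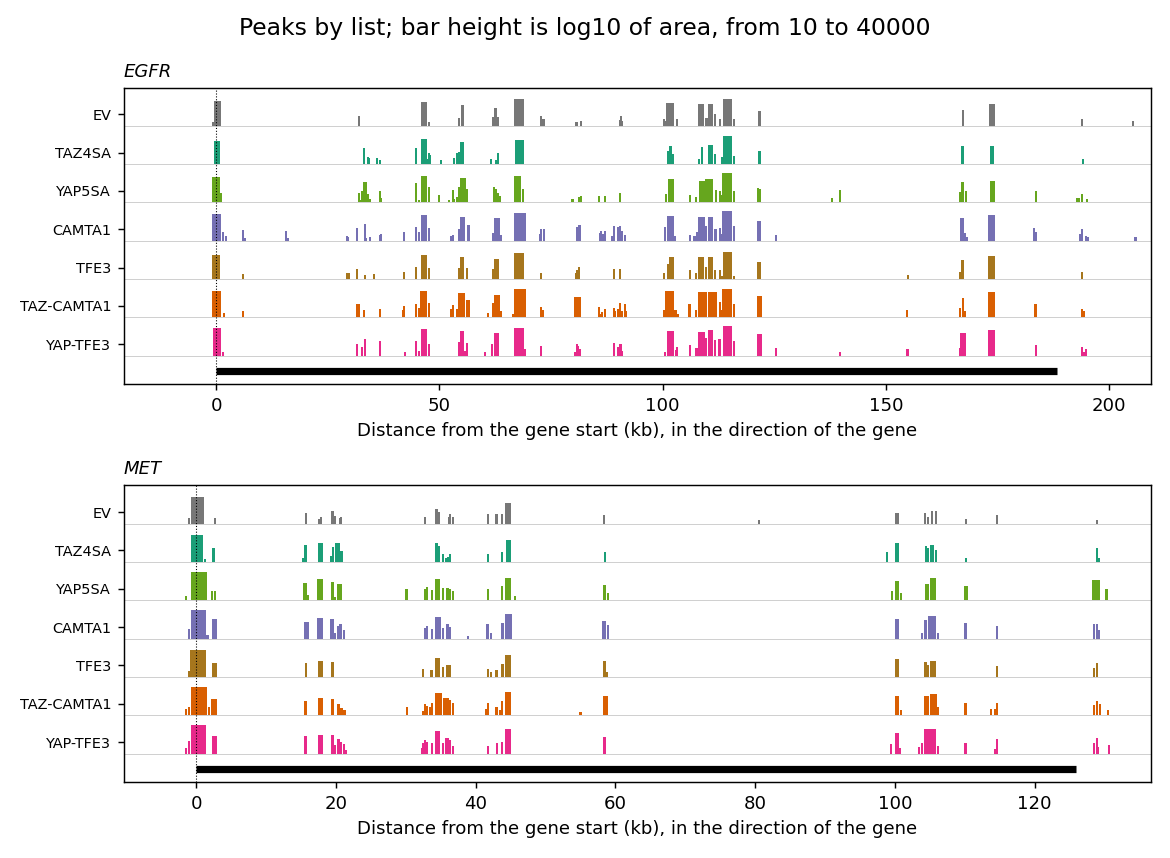
Peaks of the 7 lists at EGFR and MET by distance from the gene start in kb, 1 row per list, with the gene as a black bar; bar height is the log10 of the area of the peak. EGFR shows 34 peaks in EV and 72 in CAMTA1, and MET shows peaks in every list from the start to beyond the end of the gene.

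Peaks of all lists that overlapped by at least 1 bp were merged into sites, which gave 192 sites in the windows of 372133 in the genome. A site is named by the distance of its centre from the gene start, with plus for downstream. EGFR had 89 sites, MET 48, PDGFRB 37, and AXL and PDGFRA 9 each. Of the 192 sites, 43 had a peak in all 7 lists, which is 22.4%, against 16.2% over all sites of the genome. By gene these were 14 at EGFR, 15 at MET, 3 at AXL, 5 at PDGFRA and 6 at PDGFRB. They were wide, with a median of 1378 bp, whereas the other sites in the windows had a median of 132 bp.

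Promoter sites, defined as overlapping 1 kb to either side of the gene start, numbered 6, and 5 of them were in all 7 lists, 1 for each gene. The exception was a minor MET site 1.0 kb before the start, found in 5 lists with areas of 39 to 218. The gene bodies held 163 sites, of which 30 were in all lists. At the other end, 69 sites were in 1 list alone, or 35.9% against 42.3% in the genome. Every such site was weak, with a highest area of 159 in YAP-TFE3. No list thus had a site with an area over 159 at these genes that the other 6 lacked.

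The share of peaks that did not overlap an EV peak was close to that of the whole list for most vectors. For TAZ4SA it was 22 of 96, or 22.9% (Wilson 95% interval 15.6 to 32.3), against 33.9% over the whole list, which lay just above the interval. For YAP5SA it was 56 of 133, or 42.1% (34.1 to 50.6), against 47.9%. For CAMTA1 it was 81 of 155, or 52.3% (44.4 to 60.0), against 46.8%. The whole-list share thus lay outside the interval for TAZ4SA alone of these 3.

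For TFE3 the share was 30 of 106, or 28.3% (20.6 to 37.5), against 27.6%. For TAZ-CAMTA1 it was 67 of 136, or 49.3% (41.0 to 57.6), against 51.5%. For YAP-TFE3 it was 68 of 143, or 47.6% (39.5 to 55.7), against 50.7%. The whole-list share lay inside the interval in each of these lists. Peaks without an EV peak were small throughout: in TAZ-CAMTA1 their median area was 68.4, against 924 for peaks that overlapped an EV peak. EGFR in CAMTA1 was the window with the highest share, 45 of 72 or 62.5% (51.0 to 72.8). The whole-list share of CAMTA1, 46.8%, lay below that interval. This window was picked as the highest over all genes and lists, many of which had few peaks.

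The strength of a site was described by its area, the area under the curve of the statistic of the peak caller as deposited, summed over the peaks of a list in the site. Areas depend on depth and on how libraries were combined, neither of which is known, and in bulk cells fewer open cells and less opening per cell cannot be told apart. The median area at the 60372 sites found in all 7 lists was 764 in EV, 478 in TAZ4SA, 1335 in YAP5SA, 1906 in CAMTA1, 939 in TFE3, 2106 in TAZ-CAMTA1 and 2189 in YAP-TFE3. Raw areas are given first, and ratios between lists after each area was divided by that median of its list, here called scaled ratios.

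The promoter of EGFR (chr7:55085714-55087810) was open in every list. Its area was 5390 in EV, 3814 in TAZ4SA, 6592 in YAP5SA, 8450 in CAMTA1, 4089 in TFE3, 8688 in TAZ-CAMTA1 and 11094 in YAP-TFE3. The order of the lists was close to that of their medians, and the scaled ratios to EV ran from 0.585 in TAZ-CAMTA1 to 1.13 in TAZ4SA. Ranked by summit −log10 p within its own list, the EGFR promoter stood between the percentiles 94.0 and 98.6.

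The MET promoter (chr7:116311546-116314009) was among the strongest sites of each list. Its area was 9641 in EV, 8616 in TAZ4SA, 12265 in YAP5SA, 15114 in CAMTA1, 8318 in TFE3, 14806 in TAZ-CAMTA1 and 16029 in YAP-TFE3. It stood between the percentiles 99.0 and 99.8, and its scaled ratios to EV ran from 0.557 to 1.43.

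The AXL promoter (chr19:41724439-41727002) was weaker. Its area was 2439 in EV, 1141 in TAZ4SA, 4037 in YAP5SA, 6944 in CAMTA1, 3506 in TFE3, 8273 in TAZ-CAMTA1 and 8171 in YAP-TFE3. TAZ4SA was the only list below EV, and its percentile, 76.9, was the lowest of any list at a promoter site in all 7 lists. The scaled ratio to EV was 0.748 in TAZ4SA, 0.948 in YAP5SA, 1.14 in CAMTA1, 1.17 in TFE3, 1.23 in TAZ-CAMTA1 and 1.17 in YAP-TFE3. Once scaled, no list was as much as 2-fold from EV at the promoter of this known TAZ and YAP target.

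AXL had a second site inside the gene, centred 6.0 kb from the start (chr19:41729110-41733107). Its area was 5512 in EV, 5383 in TAZ4SA, 9262 in YAP5SA, 11256 in CAMTA1, 5152 in TFE3, 11572 in TAZ-CAMTA1 and 12440 in YAP-TFE3, above the promoter site in every list. TAZ4SA had the highest scaled ratio to EV here, 1.56, and the other lists lay between 0.761 and 0.962. The largest AXL site by area, 45.0 kb from the start (chr19:41767813-41772345), lay past the end of the gene. In GRCh38 the gene HNRNPUL1 begins 791 bp past AXL, so this site cannot be ascribed to AXL by position. In GRCh38 the second AXL start, whose sequence carries the TEAD motif, is 7532 bp from the first, and whether this distance is the same in hg19 was not checked.

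PDGFRA had a promoter site centred 1.1 kb before the start (chr4:55093511-55094888) and a larger site 4.4 kb after the start (chr4:55098000-55101306). The promoter site overlapped the 1 kb before the start but ended short of the start itself. At the first, the area was 2247 in EV, 900 in TAZ4SA, 2936 in YAP5SA, 4111 in CAMTA1, 2202 in TFE3, 4581 in TAZ-CAMTA1 and 4173 in YAP-TFE3. At the second, it was 8685 in EV, 5394 in TAZ4SA, 9807 in YAP5SA, 14014 in CAMTA1, 7878 in TFE3, 15337 in TAZ-CAMTA1 and 13859 in YAP-TFE3. The site 4.4 kb inside was thus the larger in every list and stood at the percentiles 98.7 to 99.7. In GRCh38 the 2 starts are 4667 bp apart, and the window before the second is the one with more CpG dinucleotides. Whether that distance is the same in hg19 was not checked. The scaled ratios to EV ran from 0.641 in TAZ4SA to 0.798 in TFE3 at the first site, and from 0.557 in YAP-TFE3 to 0.993 in TAZ4SA at the second.

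The promoter of PDGFRB (chr5:149532502-149536429) lay in a stretch of nearly continuous open chromatin. Its area was 4637 in EV, 2262 in TAZ4SA, 6005 in YAP5SA, 9321 in CAMTA1, 4611 in TFE3, 11880 in TAZ-CAMTA1 and 11519 in YAP-TFE3. The fusion lists had the largest raw areas, and the scaled ratios to EV were 0.741 to 0.930. Width differed between lists too: the peaks in this site covered 3928 bp in TAZ-CAMTA1, 3614 bp in YAP-TFE3, 2153 bp in EV and 1895 bp in TAZ4SA.

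**Figure D2:**
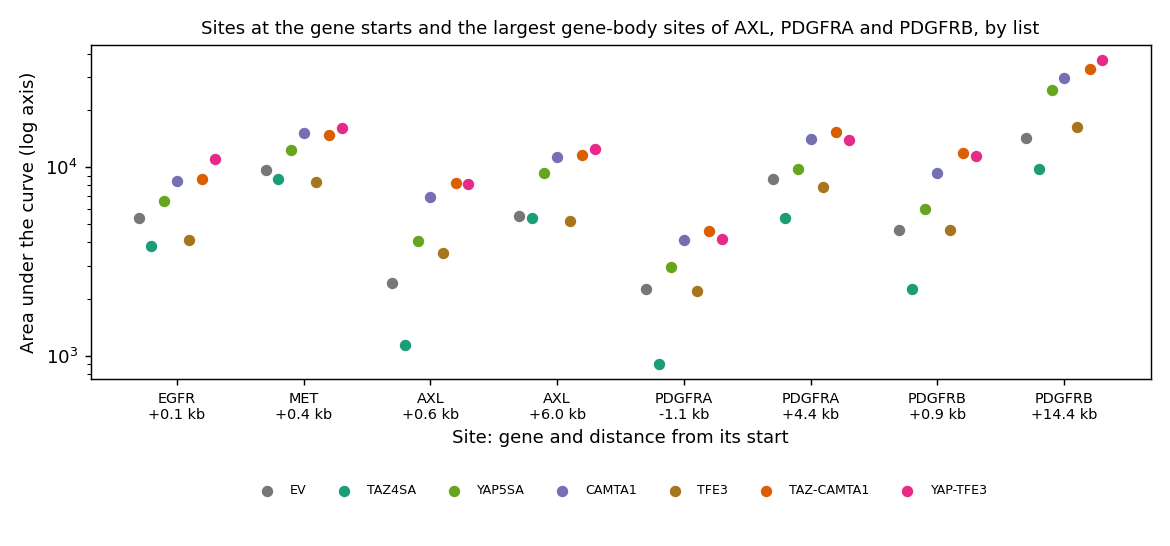
Areas under the curve (log axis) of 8 sites in the 7 lists, 1 point per list and no error bars because each vector has 1 list. The AXL site at +6.0 kb and the PDGFRA site at +4.4 kb lie above the promoter site of the gene in every list. TAZ4SA, the list with the lowest median area, is the lowest at the EGFR, AXL, PDGFRA and PDGFRB promoter sites.

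PDGFRB also held the widest site of the 5 windows, 14.4 kb into the gene (chr5:149516279-149525649, 9371 bp). Its area was 14267 in EV, 9723 in TAZ4SA, 25753 in YAP5SA, 29574 in CAMTA1, 16410 in TFE3, 32999 in TAZ-CAMTA1 and 37086 in YAP-TFE3. TAZ-CAMTA1 had it as 1 peak of 8993 bp, while EV had 8 peaks covering 5887 bp. The scaled ratios to EV, 0.831 to 1.09, were near 1 in every list.

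Upstream of PDGFRB, the site 3.1 kb before the start (chr5:149536520-149540400) was low in TAZ4SA. Its area was 4631 in EV, 1197 in TAZ4SA, 5678 in YAP5SA, 9842 in CAMTA1, 5367 in TFE3, 13299 in TAZ-CAMTA1 and 12205 in YAP-TFE3. The scaled ratio to EV was 0.413 in TAZ4SA and 1.04 in TAZ-CAMTA1, and TAZ-CAMTA1 was 2.52 times TAZ4SA. A small site 7.9 kb before the start, chosen after its values were seen, had areas of 264 in EV, 58 in TAZ4SA, 163 in YAP5SA, 208 in CAMTA1, 231 in TFE3, 931 in TAZ-CAMTA1 and 835 in YAP-TFE3. Both fusion lists were above each other list there, with scaled ratios of 3.61 for TAZ-CAMTA1 to TAZ4SA and 3.12 for YAP-TFE3 to YAP5SA. Against EV the scaled difference was small. Divided by the median of its list, the area was 0.346 in EV, 0.442 in TAZ-CAMTA1 and 0.382 in YAP-TFE3. The next gene on that side in GRCh38, CDX1, begins 10933 bp away.

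**Figure D3:**
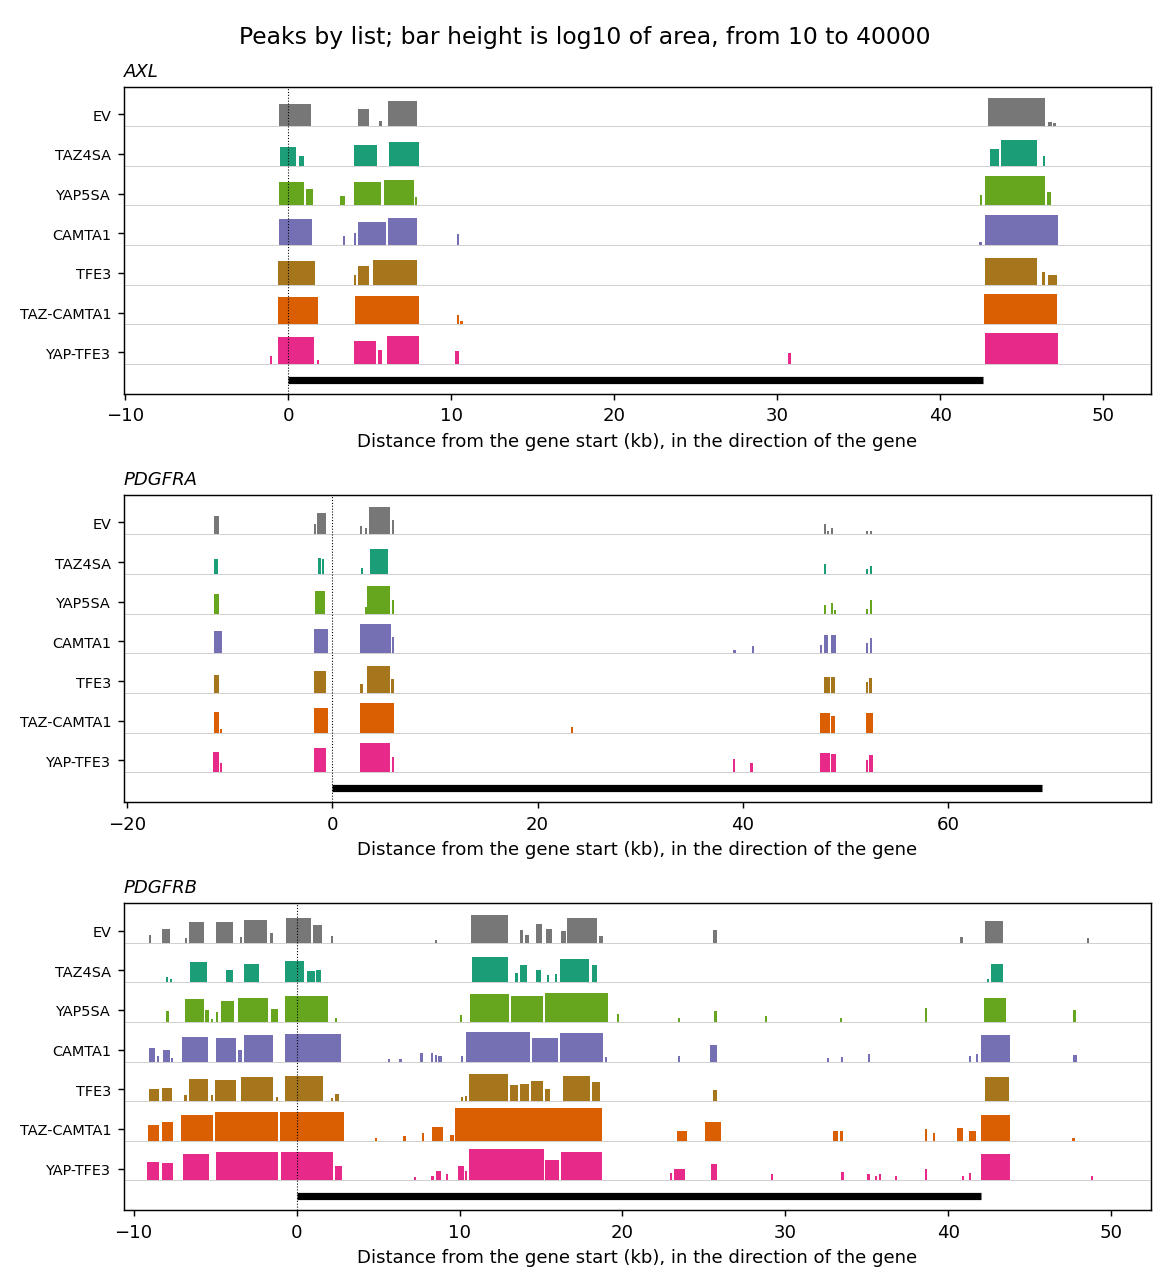
Peaks of the 7 lists at AXL, PDGFRA and PDGFRB by distance from the gene start in kb, drawn in the direction of each gene, with the gene as a black bar and bar height as the log10 of the peak area. At PDGFRB the peak around 14.4 kb is 1 block of 8993 bp in TAZ-CAMTA1 and 8 peaks in EV.

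EGFR has a very long first intron, which in the GRCh38 annotation runs from 0.348 to 123 kb after the start, and most of its open sites lay at those distances: 71 of the 79 sites in the gene body, and 10 of the 12 found in all lists. The largest was 114.5 kb from the start (chr7:55200084-55202335), with an area of 9166 in EV, 11454 in TAZ4SA, 16324 in YAP5SA, 17494 in CAMTA1, 9485 in TFE3, 15546 in TAZ-CAMTA1 and 19319 in YAP-TFE3. That exceeded the promoter site of EGFR in every list. In TAZ4SA the scaled ratio to EV was 2.00 when rounded and just short of the 2-fold limit, while TAZ-CAMTA1 was 0.308 times TAZ4SA.

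The next largest EGFR site, 68.0 kb in (chr7:55153376-55156059), had an area of 8530 in EV, 5316 in TAZ4SA, 8904 in YAP5SA, 12192 in CAMTA1, 7169 in TFE3, 13436 in TAZ-CAMTA1 and 12713 in YAP-TFE3. The site 46.5 kb in (chr7:55132374-55133930) had 4878 in EV, 5641 in TAZ4SA, 7747 in YAP5SA, 7026 in CAMTA1, 4511 in TFE3, 7705 in TAZ-CAMTA1 and 8446 in YAP-TFE3. TAZ4SA was level with EV at the first of these (scaled ratio 0.997) and 1.85 times EV at the second. The sites within the same intron thus did not share 1 pattern across lists. In GRCh38 the second EGFR start, with the TEAD and AP-1 motifs, is 90822 bp from the first. The hg19 sites nearest to that distance, chosen after their values were seen, were weak, with areas of 99 to 450 at 90.5 kb in the 6 lists that had it and 34 to 131 at 90.9 kb in 4 lists, TAZ4SA having neither.

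A group of EGFR sites was seen with TAZ4SA and YAP5SA but not with EV. There were 8 such sites, or 4.17% of the 192 sites, close to the 4.35% of all sites of the genome. All 8 were at EGFR, where they made up 8.99% of its 89 sites, and MET, AXL, PDGFRA and PDGFRB had 0. The first by rank lay 33.4 kb in (chr7:55119636-55120476). It had no peak in EV and areas of 681 in TAZ4SA, 2072 in YAP5SA, 739 in CAMTA1, 31 in TFE3, 72 in TAZ-CAMTA1 and 622 in YAP-TFE3. YAP5SA was highest although its list had a lower median area than CAMTA1 and both fusions, and TAZ-CAMTA1 was low although its list had the second highest.

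The next, 44.8 kb in (chr7:55131285-55131691), also had no EV peak, with 645 in TAZ4SA, 1458 in YAP5SA, 376 in CAMTA1, 195 in TFE3, 274 in TAZ-CAMTA1 and 385 in YAP-TFE3. TAZ4SA and YAP5SA were the 2 highest lists here, while at 33.4 kb CAMTA1 stood between them in raw area. These 2 EGFR sites were the only sites in the 5 windows with a peak in all lists but EV. They made up 1.04% of the 192 sites, close to the 1.22% in the genome. These sites were ranked by the smaller of the TAZ4SA and YAP5SA areas, and the third was a weak site 33.9 kb in (chr7:55120587-55120688), with 64 in TAZ4SA, 95 in YAP5SA and no peak in the other 5 lists. A list without a peak is one where no peak passed the threshold of the caller, and a lower signal there cannot be told apart from none.

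Sites with a peak in both fusion lists and none in EV numbered 29 of 192, or 15.1%, against 14.0% of all sites of the genome. Of these, 15 were at EGFR, 9 at MET, 4 at PDGFRB, 1 at AXL and 0 at PDGFRA. Ranked by the smaller of the 2 fusion areas, the EGFR site at 44.8 kb came first, followed by those 56.4 kb in (chr7:55142726-55143486), with 314 in YAP5SA, 498 in CAMTA1, 181 in TFE3, 804 in TAZ-CAMTA1 and 268 in YAP-TFE3, and 183.4 kb in, with 182 in YAP5SA, 342 in CAMTA1, 300 in TAZ-CAMTA1 and 169 in YAP-TFE3. The AXL site, 10.3 kb in (chr19:41735344-41735557), had 140 in CAMTA1, 96 in TAZ-CAMTA1 and 277 in YAP-TFE3. CAMTA1 had a peak at 21 of the 29 sites. These 21 made up 10.9% of the 192 sites, against 8.78% in the genome. Only 2 of the 192 sites, 1 at EGFR and 1 at MET, were in the fusion lists alone, or 1.04% against 3.15%.

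By the same ranking, the first 3 sites of this kind at MET had areas of 64 to 222 at 33.7 kb in the 5 lists that had it, 113 to 315 at 33.0 kb in 4 lists and 45 to 85 at 106.2 kb in 3 lists. Those of PDGFRB were 38.6 kb in, with 283 in YAP5SA, 200 in TAZ-CAMTA1 and 190 in YAP-TFE3, 23.6 kb in, with 23 in YAP5SA, 36 in CAMTA1, 114 in TAZ-CAMTA1 and 161 in YAP-TFE3, and 33.5 kb in, with 24 in YAP5SA, 33 in CAMTA1, 107 in TAZ-CAMTA1 and 91 in YAP-TFE3. Each lay below the promoter site of its gene that was found in all lists.

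Few sites of EV lacked a peak in both fusion lists, which are longer than the EV list. Only 3 of the 192 sites, or 1.56% against 4.79% in the genome, had an EV peak and none in either fusion list. They were 205.4 kb from the start of EGFR, 80.5 kb into MET and 48.6 kb from the start of PDGFRB, with EV areas of 34, 22 and 30, near the smallest the lists hold. In GRCh38 the gene CSF1R lies 474 bp past the end of PDGFRB, so sites past that end cannot be ascribed to PDGFRB by position. Each of the 3 was in the EV list alone. Sites with an EV peak and no TAZ4SA peak were more frequent, at 22 of the 192, or 11.5% against 15.2% in the genome.

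**Figure D4:**
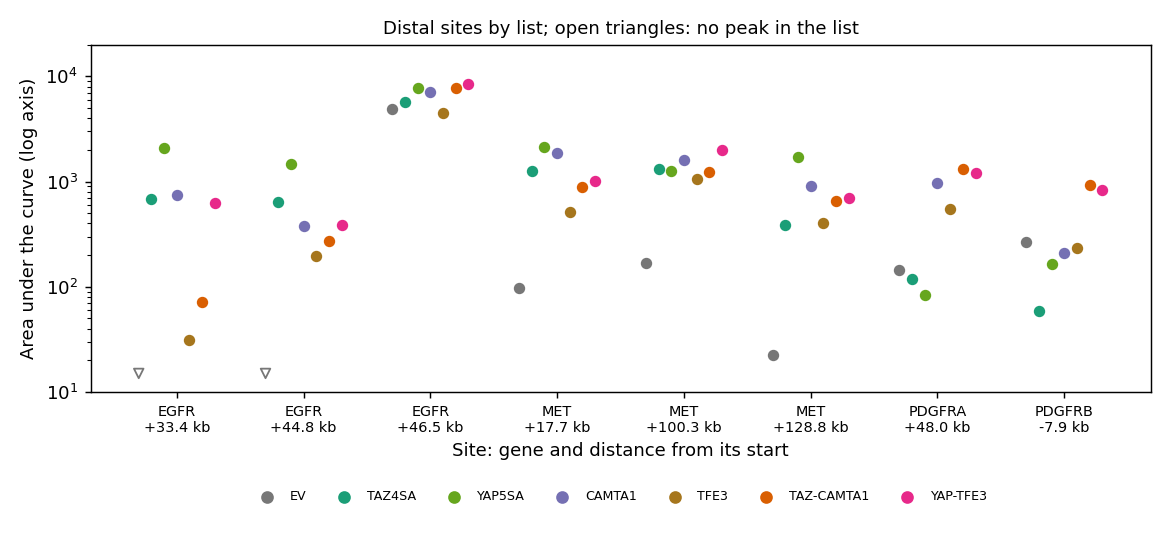
Areas under the curve (log axis) at 8 distal sites in the 7 lists, 1 point per list; open triangles mark a list with no peak. EV has no peak at the EGFR sites at +33.4 and +44.8 kb and is the lowest list at the 3 MET sites, and both fusions are the highest lists at the PDGFRA and PDGFRB sites.

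Scaled ratios to EV were then counted at the 43 sites in all 7 lists, with 2-fold as the limit. In TAZ4SA, 14 sites were at least 2-fold higher, or 32.6%, against 19.2% of all 60372 such sites in the genome, and 3 were at least 2-fold lower, against 20.3%. In YAP5SA, 15 were higher, against 16.7%, and 2 lower, against 17.9%. In CAMTA1, 13 were higher, against 14.6%, and 1 lower, against 11.0%. Over the 43 sites, shares above the limit were thus higher, and shares below it lower, than in the genome in these 3 lists. The excess above the limit was not shared by all 5 windows. MET held 10 of the 14 higher sites in TAZ4SA, 11 of the 15 in YAP5SA and 8 of the 13 in CAMTA1. EGFR had 3 of 14 sites above the limit in each of these lists, or 21.4%. PDGFRA had 1 of 5 in TAZ4SA and YAP5SA and 2 of 5 in CAMTA1, and AXL and PDGFRB had 0.

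In TFE3, 9 sites were higher, against 11.4%, and 2 lower, against 9.36%. In TAZ-CAMTA1, 9 were higher, against 12.8%, and 0 lower, against 7.86%. In YAP-TFE3, 12 were higher, against 14.9%, and 1 lower, against 9.5%. Without scaling, 36 of the 43 sites were higher in TAZ-CAMTA1, 34 in YAP-TFE3 and 31 in CAMTA1, and 9 were lower in TAZ4SA, so these counts rest on the scaling. Comparisons to EV share the EV list and are not independent of each other.

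MET supplied most of the sites above the limit. Of its 15 sites, 10 were at least 2-fold higher than EV in TAZ4SA, 11 in YAP5SA, 8 in CAMTA1, 7 in YAP-TFE3, and 6 in TFE3 and in TAZ-CAMTA1. The median scaled ratio over the 15 MET sites was 4.01 in TAZ4SA, 2.45 in YAP5SA, 2.11 in CAMTA1, 1.64 in YAP-TFE3, 1.55 in TFE3 and 1.50 in TAZ-CAMTA1, where the median over all 60372 sites was 1.02, 0.755, 0.832, 0.854, 0.868 and 0.869, in the same order. By contrast, 0 of the 3 AXL sites and 0 of the 6 PDGFRB sites were 2-fold higher in any list. EGFR had 1 to 3 of 14 sites above the limit, and PDGFRA 1 or 2 of 5.

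**Figure D5:**
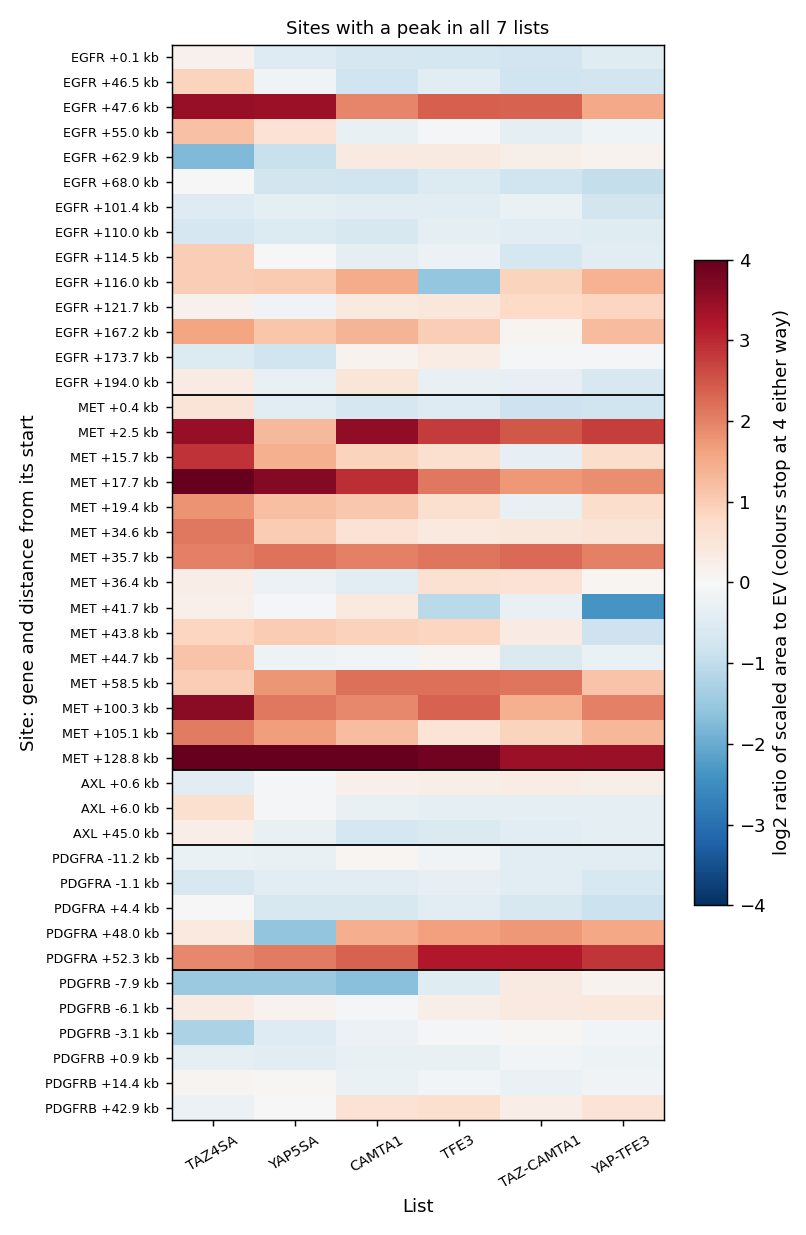
Log2 of the scaled ratio to EV at the 43 sites with a peak in all 7 lists, rows by gene and distance from its start and columns by list; red is above EV and blue below. Red is concentrated in the 15 MET rows, where TAZ4SA has 10 sites and YAP5SA 11 sites at 2-fold or more, and the 6 PDGFRB rows have none.

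The low EV areas at MET bear on this. Across the genome, sites in all lists with an EV area under 250 were often above the limit, 46.0% of 15012 in TAZ4SA, against 10.4% of the 45360 with a larger EV area. In the same order, the shares were 46.2% and 6.93% in YAP5SA, and 43.8% and 2.53% in TAZ-CAMTA1. MET had 11 sites of the first kind and 4 of the second. In TAZ4SA, 7 of the 11 and 3 of the 4 were at least 2-fold higher, in YAP5SA 9 of the 11 and 2 of the 4, and in TAZ-CAMTA1 6 of the 11 and 0 of the 4. The 1 Mb to each side of the MET window also differed between lists, with 107 peaks in EV, 166 in TAZ4SA, 228 in YAP5SA, 176 in CAMTA1, 117 in TFE3, 168 in TAZ-CAMTA1 and 201 in YAP-TFE3. TAZ4SA thus had more peaks than EV around MET although its list was the shorter, at 152702 peaks against 171102. At the flanks of the other 4 genes TAZ4SA had fewer peaks than EV. The part of the EV list in the MET ratios was not tested.

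Among the MET sites chosen for size, the one 105.1 kb in (chr7:116416579-116418383) had areas of 711 in EV, 1859 in TAZ4SA, 3941 in YAP5SA, 4189 in CAMTA1, 1278 in TFE3, 3602 in TAZ-CAMTA1 and 5166 in YAP-TFE3. The scaled ratio to EV was 4.18 in TAZ4SA, 3.18 in YAP5SA, 2.36 in CAMTA1, 1.46 in TFE3, 1.84 in TAZ-CAMTA1 and 2.54 in YAP-TFE3. The site 34.6 kb in (chr7:116346501-116347526) had 667 in EV, 1804 in TAZ4SA, 2353 in YAP5SA, 2467 in CAMTA1, 1084 in TFE3, 2537 in TAZ-CAMTA1 and 2740 in YAP-TFE3. EV was the lowest list at both sites in raw area, TAZ4SA included.

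The site 44.7 kb into MET (chr7:116356588-116357561) differed less, with 2090 in EV, 2869 in TAZ4SA, 3152 in YAP5SA, 4845 in CAMTA1, 2783 in TFE3, 3874 in TAZ-CAMTA1 and 5007 in YAP-TFE3. Only TAZ4SA, at 2.20, passed the limit there.

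A further 3 MET sites, chosen after their values were seen, had EV areas well below those of every other list. The site 17.7 kb in (chr7:116329609-116330565) had 97 in EV, 1267 in TAZ4SA, 2152 in YAP5SA, 1859 in CAMTA1, 510 in TFE3, 881 in TAZ-CAMTA1 and 1015 in YAP-TFE3. The site 100.3 kb in (chr7:116412427-116412985) had 170 in EV, 1304 in TAZ4SA, 1269 in YAP5SA, 1601 in CAMTA1, 1063 in TFE3, 1239 in TAZ-CAMTA1 and 1979 in YAP-TFE3. At 128.8 kb (chr7:116440679-116441780), just past the end of the gene, EV had 22, TAZ4SA 387, YAP5SA 1720, CAMTA1 906, TFE3 402, TAZ-CAMTA1 654 and YAP-TFE3 705. The 6 lists above EV included those of CAMTA1 and TFE3, and why EV was lowest was not tested. In summit −log10 p, the site at 128.8 kb stood at percentile 4.2 in EV and between 75.6 and 92.6 in the other lists.

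At PDGFRA, 2 sites in the gene body separated the lists in another way. The site 48.0 kb in (chr4:55142800-55143794) had an area of 143 in EV, 117 in TAZ4SA, 84 in YAP5SA, 975 in CAMTA1, 544 in TFE3, 1321 in TAZ-CAMTA1 and 1199 in YAP-TFE3. The site 52.3 kb in (chr4:55147244-55147929), chosen after its values were seen, had 46 in EV, 109 in TAZ4SA, 341 in YAP5SA, 597 in CAMTA1, 524 in TFE3, 1171 in TAZ-CAMTA1 and 970 in YAP-TFE3. At both, CAMTA1, TFE3 and the fusions were above EV, TAZ4SA and YAP5SA. At the site 48.0 kb in, the area divided by the median of its list was 0.627 in TAZ-CAMTA1 and 0.245 in TAZ4SA. The scaled ratio of YAP-TFE3 to YAP5SA was 8.73 there. The upstream PDGFRA site at 11.2 kb before the start showed no such split, with scaled ratios to EV of 0.727 to 1.04.

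The fusions were next set against the full-length coactivators they derive from. Of the 43 sites, 16 were at least 2-fold lower in TAZ-CAMTA1 than in TAZ4SA on the scaled ratio, against 24.8% of all sites in the genome, and 6 were higher, against 22.9%. MET accounted for 10 of the 16, with a median ratio of 0.390 over its 15 sites, and EGFR for 5. The 6 higher sites were 2 each at PDGFRA and PDGFRB and 1 each at EGFR and MET. Without scaling, 29 sites were higher and 1 lower, so the direction of this comparison depends on the scaling. For YAP-TFE3 to YAP5SA, 5 sites were lower, against 11.8%, and 5 higher, against 15.5%, and the median ratio over the 43 sites was 0.892.

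On the scaled ratio, the fusions lay closer to their C-terminal partners. For TAZ-CAMTA1 to CAMTA1, 5 of the 43 sites were at least 2-fold lower, against 6.89%, and 2 higher, against 6.72%, with a median ratio of 0.931. For YAP-TFE3 to TFE3, 3 were lower, against 4.18%, and 1 higher, against 8.35%, with a median ratio of 0.908. Of the lower sites, 4 of 5 and 3 of 3 were at MET. On this scale the fusion lists differed less from the partner lists than from the coactivator lists, over the genome as well as at these genes. For YAP-TFE3 the order turned round without scaling: 23 of the 43 sites were 2-fold higher than in TFE3 and 13 higher than in YAP5SA, and the median ratio over all 60372 sites was 2.28 to TFE3 and 1.71 to YAP5SA.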

How the data were processed

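The deposited data were 7 Genrich peak lists in hg19. The study trimmed adapters with NGmerge, used BWA-MEM for alignment and ran Genrich in its ATAC-seq mode, removing PCR duplicates and blacklisted regions. The methods describe calling on each replicate, and how libraries were combined into 1 list per vector is not stated. The labels name mm8 and Bowtie, which the positions do not match: 15 of 24 human chromosomes had peaks past their GRCh38 end, so the lists were read as hg19. The deposited values were the signal (area under the curve), the −log10 p and −log10 q of the summit, and a score (mean signal per base, capped at 1000), all as the authors' peak caller gave them. The −log10 q and the score were not used. Depth is unknown.

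Peaks were counted in the windows, merged into sites at 1 bp of overlap, and compared between lists with Python 3.11.15, pandas 2.3.3 and statsmodels 0.14.6. Interval operations were tested on simulated data against bedtools 2.31.1. Scaling of areas was chosen after seeing the data. Gene starts were placed to the nearest 100 bp from general knowledge of the hg19 gene models, since no hg19 annotation was used here. Peak sequences, other receptor genes and ligands, and cell type markers were therefore not analysed here. Promoter sequences came from RefSeq GRCh38.p14, and no coordinate was converted between builds. The members, lists and rules were chosen with earlier results of these data known.

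Named sites were, per window, the promoter sites, the 3 largest others by median area among those in all 7 lists, and up to 3 each of those in both fusions but not EV, in TAZ4SA and YAP5SA but not EV, and in EV but neither fusion. Other named sites are marked in the text as chosen later. Alternatives were a stricter summit −log10 p (minimum 4), equal list lengths, windows shortened by 10 kb, 50% overlap, windows of 250 bp around summits, percentile ranks and other scalings.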

Additional observations from a re-analysis of the deposited data

How the results depend on the processing

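Of 93 values recomputed under alternatives, 66 stayed within the limits set for a change and 27 moved. Taking the strongest 152702 peaks of every list left 100 CAMTA1 peaks in the windows, against 155, and lowered the share without an EV peak to 30.9% in YAP5SA, 35.0% in CAMTA1, 36.2% in TAZ-CAMTA1 and 34.3% in YAP-TFE3. Requiring an overlap of 50% of both peaks raised that share to 53.1% in TAZ4SA, 61.7% in YAP5SA, 68.4% in CAMTA1, 43.4% in TFE3, 73.5% in TAZ-CAMTA1 and 65.0% in YAP-TFE3, since wide and joined peaks then count as unshared. With areas not scaled, an alternative added after seeing the data, sites 2-fold higher than EV numbered 31 in CAMTA1, 36 in TAZ-CAMTA1 and 34 in YAP-TFE3. Sites lower than EV numbered 9 in TAZ4SA, 1 in TFE3, and 0 in YAP5SA, CAMTA1 and YAP-TFE3. TAZ-CAMTA1 was then higher than TAZ4SA at 29 sites and lower at 1, YAP-TFE3 higher than YAP5SA at 13, and YAP-TFE3 higher than TFE3 at 23 and lower at 0. The balance of higher and lower sites thus turned round for TAZ-CAMTA1 to TAZ4SA, from 6 higher and 16 lower, and for YAP-TFE3 to TFE3, from 1 higher and 3 lower. With areas scaled by the median ratio, also added later, TFE3 was lower than EV at 1 site, YAP-TFE3 higher than YAP5SA at 3 and TAZ-CAMTA1 higher than CAMTA1 at 1. The stricter summit threshold, the shortened windows, the summit windows and the percentile ranks moved no value past these limits. The percentile ranks recounted, at each promoter, how many of the other 6 lists stood above EV. That count rose from 4 to 6 at MET and fell from 4 to 3 at PDGFRB. A rise could not have passed the limits there, since 6 is the most possible. No paired analysis was possible because each vector has a single deposited list, and for that reason no library could be left out. The unknown depth limits every area and every absent peak.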
